A study of Rattus norvegicus with 6 samples.

Results

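Imprinted genes are expressed mainly from the copy inherited from 1 parent, according to methylation marks laid down in the germ line. They tend to lie in clusters, and many of them act on fetal growth, on the placenta or on the brain. In neurons, Nnat (neuronatin, a small membrane proteolipid of the endoplasmic reticulum), Ndn (necdin, a MAGE family protein that holds back cell division), Peg3 (a large zinc finger protein) and Snrpn (the SmN protein of splicing particles) are known to be expressed from the paternal copy. Igf2r (the receptor that takes up IGF2 and carries lysosomal enzymes) is expressed mainly from the maternal copy in most rodent tissues, which need not hold for neurons. The group described here holds these 5 genes together with Igf2 (a fetal growth factor), Plagl1 (a zinc finger transcription factor), Dlk1 (a non-canonical Notch ligand) and Impact (a regulator of translation), 9 genes in all. The group was chosen by the FPKM of Nnat, which had been seen as the most abundant gene in 2 of the 6 libraries, so that the abundance of Nnat is described below and not tested. Rows were found for 8 of the 9 symbols among the 17066 genes of the deposited table, and Impact was not analysed here. Values were given per gene, so the parental copies were not told apart, and imprinting in these cells was not measured.

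Primary hippocampal neurons were prepared at embryonic day 18 from embryos of Sprague-Dawley rats, and on day 5 or 6 in vitro they received lentivirus of the FUGW type, whose ubiquitin promoter is active in many kinds of cell. The virus carried EGFP alone in the EGFP controls, wild-type cyclin Y with EGFP in CCNY-WT, and a short hairpin RNA against cyclin Y with EGFP in CCNY-shRNA, so that all 3 conditions shared infection and EGFP. RNA was taken on day 14 in vitro, and each condition was sequenced as 2 libraries, called replicates 1 and 2. Nothing in the labels tells whether the 2 libraries came from separate cultures, so p-values measure the spread between these libraries, which may be technical. Expression is given in FPKM, the number of fragments scaled to the length of the transcript and to the mapped fragments of the library. Levels of different genes are compared on this scale, which rests on transcript lengths from an annotation that is not given.

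The FPKM of Ccny, the targeted gene, was 43.1 and 42.3 in the EGFP controls, 108 and 109 in those of CCNY-WT and 5.98 and 6.19 in those of CCNY-shRNA, which matched the labels. The depth of the libraries in reads is unknown. The depth relative to EGFP replicate 1, read from the steps between low values, ranged from 0.818 in CCNY-shRNA replicate 1 to 1.33 in CCNY-WT replicate 1. The 12 neuron markers summed to between 5878 and 6027 FPKM in every library, while all 8 microglia markers lay under 1 in every library, and 2 of these were listed at 0 throughout. Of 10 vascular and meningeal markers, 8 lay under 1 in every library, but Lum was at 46.0 to 59.7 FPKM and Dcn at 13.2 to 17.0. The 8 oligodendrocyte lineage markers summed to between 37.2 and 47.6 FPKM. The 8 choroid plexus markers summed to between 18.2 and 39.9 FPKM, with Ttr alone at 15.4 to 36.4. The astrocyte markers with a row, 7 in number, summed to between 535 and 574 FPKM in the EGFP controls, 563 and 568 in those of CCNY-WT and 468 and 540 in those of CCNY-shRNA. These are bulk libraries, in which fewer cells of a type and less RNA per cell cannot be told apart.

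The levels of the 8 genes spanned more than 4 powers of 10. Nnat had a mean of 4436 FPKM over the 6 libraries, Ndn of 286, Peg3 of 141, Igf2r of 25.1, Plagl1 of 8.60, Snrpn of 5.40, Dlk1 of 0.310 and Igf2 of 0.146. Between neighbours in this order, the ranges over the 6 libraries did not overlap, except for Dlk1 (0.129 to 0.489) and Igf2 (0.0758 to 0.302), whose ranges did. The closest pair apart from these was Plagl1, from 7.45 to 9.76, and Snrpn, from 4.37 to 6.81, with a ratio between 1.13 and 2.23 within a library. Nnat was between 13.8 and 17.6 times as abundant as Ndn in each library, and Nnat alone made up between 89.3% and 91.8% of the summed FPKM of the 8 genes. Among all 17066 genes, Ndn ranked between 338 and 367, Peg3 between 697 and 916, and Igf2r between 3828 and 4209.

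**Figure D1:**
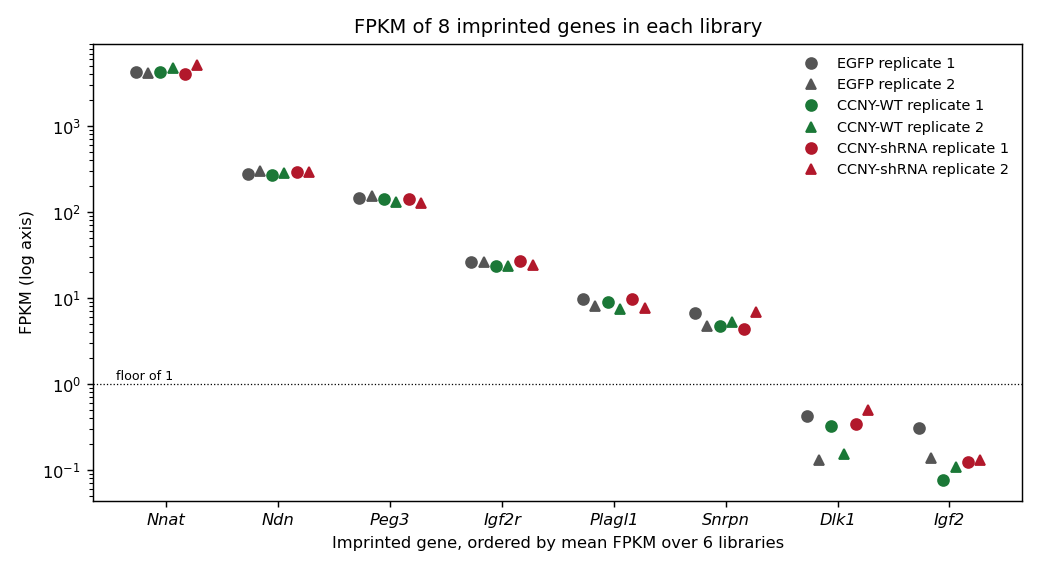
FPKM (log axis) of the 8 imprinted genes with a row, ordered by mean FPKM, with 1 point per library (circles for replicate 1, triangles for replicate 2) and 1 colour per condition. The 6 points of a gene lie close together from Nnat down to Igf2r, while Dlk1 and Igf2 lie under the dotted floor of 1 in every library and scatter widely.

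Promoter sequences of 4 of these genes are shown to set their base composition beside their levels. RefSeq windows of 300 bases (250 before and 50 after a transcription start, GRCr8 build) were found for 8 of the 9 members, with none for Nnat. Each is written 5′ to 3′ on the strand of the gene, and capitals mark matches to 3 short motifs, searched on both strands and chosen after the sequences had been read. These are TGACGTCA, the cyclic AMP response element, in 1.83% of all 33469 windows, TCACGTGA, an extended E-box, in 0.777%, and GCATGCGC, part of the NRF1 motif, in 2.47%. Ndn lies at chr1:125260809-125261108 (plus strand), Peg3 at chr1:76130744-76131043 (plus strand), Igf2r at chr1:50526628-50526927 (plus strand) and Dlk1 at chr6:134192347-134192646 (plus strand).
Ndn: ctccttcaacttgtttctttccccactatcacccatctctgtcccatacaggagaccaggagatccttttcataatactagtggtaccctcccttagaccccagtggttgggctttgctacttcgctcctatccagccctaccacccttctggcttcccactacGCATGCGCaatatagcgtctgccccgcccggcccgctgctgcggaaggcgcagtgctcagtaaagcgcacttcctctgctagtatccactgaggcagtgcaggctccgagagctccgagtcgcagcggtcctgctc
Peg3: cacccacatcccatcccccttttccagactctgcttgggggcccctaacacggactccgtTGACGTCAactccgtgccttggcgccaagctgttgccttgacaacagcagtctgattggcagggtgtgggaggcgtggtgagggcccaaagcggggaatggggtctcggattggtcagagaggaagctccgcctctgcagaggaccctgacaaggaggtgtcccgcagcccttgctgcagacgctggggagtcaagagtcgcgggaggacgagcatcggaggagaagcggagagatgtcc
Igf2r: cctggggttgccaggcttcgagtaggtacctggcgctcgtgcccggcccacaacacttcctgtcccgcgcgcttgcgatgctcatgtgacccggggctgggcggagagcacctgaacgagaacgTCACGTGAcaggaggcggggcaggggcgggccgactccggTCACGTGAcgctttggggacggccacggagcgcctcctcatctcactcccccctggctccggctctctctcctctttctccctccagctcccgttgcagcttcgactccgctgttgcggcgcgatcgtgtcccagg
Dlk1: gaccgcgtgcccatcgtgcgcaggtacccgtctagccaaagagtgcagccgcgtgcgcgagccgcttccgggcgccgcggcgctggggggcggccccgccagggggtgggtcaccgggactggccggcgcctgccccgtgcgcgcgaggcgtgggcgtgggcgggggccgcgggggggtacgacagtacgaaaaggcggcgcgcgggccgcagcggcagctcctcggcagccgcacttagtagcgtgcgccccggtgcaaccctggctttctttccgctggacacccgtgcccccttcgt
The Ndn window held 1 match to the NRF1 letters, the Peg3 window 1 response element and the Igf2r window 2 extended E-boxes, a number reached by 0.0418% of all windows. The Dlk1 window held none of the 3 motifs, and neither did the windows not shown, those of Snrpn, Plagl1, Impact and Igf2. The windows shown thus include every member window with a match. The count of CpG dinucleotides was 14 in Ndn, 16 in Peg3, 30 in Igf2r and 45 in Dlk1, against a median of 7 over all windows. In the windows not shown it was 11 in Snrpn, 29 in Plagl1, 5 in Impact, and 7 and 19 in those of Igf2. Thus the window of Dlk1 had more CpG than 98.3% of all windows while its transcript stayed under an FPKM of 0.5, whereas Ndn, with an FPKM near 286, had more CpG than 66.5% of them. No methylation or binding was measured in these cells, and the matches are given as a description of the sequences.

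Nnat lay among the 3 most abundant genes of every library. Its FPKM was 4224 and 4108 in the EGFP controls, 4253 and 4764 in those of CCNY-WT and 4090.1 and 5179 in those of CCNY-shRNA. It ranked first in CCNY-WT replicate 2 and CCNY-shRNA replicate 2, second in both EGFP libraries and CCNY-shRNA replicate 1, and at rank 3 in CCNY-WT replicate 1. The gene it shared the top with was Uqcr10, a small subunit of respiratory complex III, at 4228 and 4236 in the EGFP controls, 4706 and 4621 in those of CCNY-WT and 4310.0 and 4621 in those of CCNY-shRNA. The ratio of Nnat to Uqcr10 therefore stayed between 0.904 and 1.12, and the first rank changed hands over a small difference. In CCNY-WT replicate 1 both were preceded by Bc1, a brain cytoplasmic RNA, which was at 97548 FPKM there and listed at 0 in the other libraries. Ppia, a cyclophilin, followed Nnat and Uqcr10 in every library.

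The share of Nnat in the FPKM sum of a library was 0.776% and 0.755% in the EGFP controls, 0.659% and 0.860% in those of CCNY-WT, and 0.752% and 0.915% in CCNY-shRNA. With Bc1 left out of the sum, the value of CCNY-WT replicate 1 became 0.776%, close to that of EGFP replicate 1. The 2 libraries in which Nnat ranked first also had the largest FPKM sums without Bc1, 554194 and 566287, against 543567 to 547887 in the others, and their part in the rank of Nnat was not tested.

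**Figure D2:**
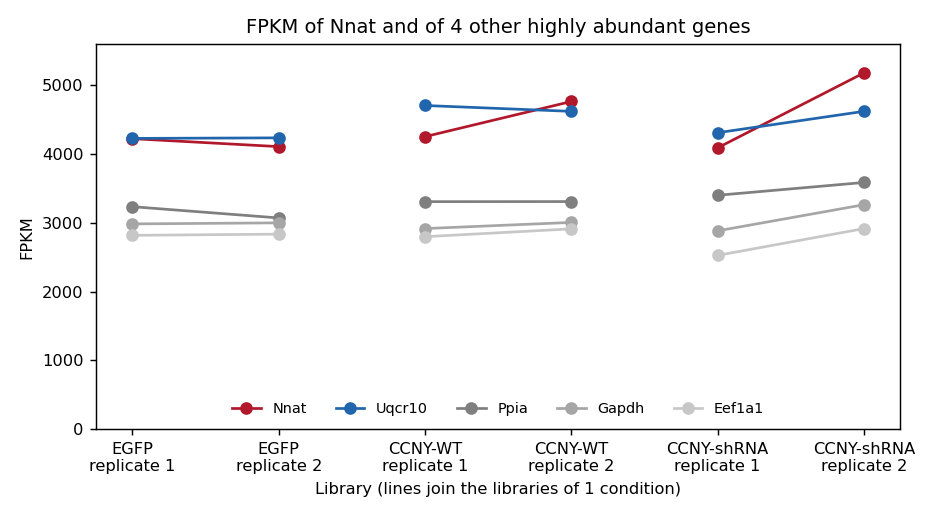
FPKM of Nnat, Uqcr10, Ppia, Gapdh and Eef1a1 in the 6 libraries, with lines joining the 2 libraries of a condition. Nnat (red) and Uqcr10 (blue) run side by side between 4108 and 4236 FPKM in EGFP, and Nnat lies above Uqcr10 only in CCNY-WT replicate 2 and CCNY-shRNA replicate 2.

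The mean FPKM of Nnat was 4166 ± 81.5 (SD, n = 2) for EGFP, 4509 ± 361 for CCNY-WT and 4635 ± 770 for CCNY-shRNA, which on the log2 scale was 0.11 and 0.14 above EGFP. The 2 libraries of CCNY-shRNA differed from each other by 0.34 on the log2 scale, more than the conditions differed, and they lay on both sides of the EGFP libraries. Without CCNY-shRNA replicate 2, the difference from EGFP was -0.03, and without CCNY-shRNA replicate 1 it was 0.31. In CCNY-WT both libraries lay above both EGFP libraries, replicate 1 by a narrow margin. The difference from EGFP was 0.030 without CCNY-WT replicate 2 and 0.19 without CCNY-WT replicate 1. After quantile normalization, which sets each value by its rank among the genes fitted, both differences from EGFP were 0.040. Bc1 was not among those genes, so this value restates the ranks of Nnat and is no separate measure of its change. Since the abundance of Nnat in these libraries had led to its choice, no p-value is given.

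The genes whose pattern over the 6 libraries was most like that of Nnat were sought among 3494 genes with a mean FPKM of at least 30, by the root mean square difference between log2 values centred on the mean of each gene. They were Rps24 (0.0260), Atp5g3 (0.0277), Rpl26 (0.0279), Rpl30 (0.0279) and Sec61b (0.0330), against a median of 0.139 over all genes compared. Rps24, a ribosomal protein gene, was at 1055 and 1069 FPKM in the EGFP controls, 1091 and 1185 in those of CCNY-WT and 1062 and 1335 in those of CCNY-shRNA. As with Nnat, CCNY-shRNA replicate 2 stood highest and CCNY-WT replicate 2 next. The likeness is a description over 6 libraries that share their scaling, and the genes are not independent of one another.

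Nnat lies within the span of Blcap, an imprinted gene for a small membrane protein of the bladder cancer associated family, in the RefSeq annotation of GRCr8. The FPKM of Blcap was 144 and 150.2 in the EGFP controls, 142 and 147 in those of CCNY-WT and 126 and 123 in those of CCNY-shRNA, so that Nnat was between 27.4 and 42.2 times as abundant. Both CCNY-shRNA libraries lay below all 4 others. The log2 change of Blcap in CCNY-shRNA was -0.24 (standard error 0.0528, 95% interval -0.37 to -0.12), which did not pass the threshold (limma adjusted p = 0.0828). The labels name a stranded library kit, the methods of the study name a kit without stating strand, and whether the counting used strand is not given in the sources used here, so reads of the 2 overlapping genes may not have been told apart.

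Neuronatin resembles the small proteins that regulate SERCA, the calcium pump of the endoplasmic reticulum. Of 5 genes fixed for this pump and its regulators, 4 had a row, and Atp2a2, which encodes SERCA2, was the only one with an FPKM of 1 or more in 2 or more libraries. It was at 264 and 276 FPKM in the EGFP controls, 259 and 253 in those of CCNY-WT and 229 and 224 in those of CCNY-shRNA, with both CCNY-shRNA libraries lowest. Its log2 change in CCNY-shRNA was -0.25 (standard error 0.0527, limma adjusted p = 0.0768), which did not pass the threshold of 0.05. Over all genes tested in CCNY-shRNA against EGFP, 3.88% had a limma adjusted p under 0.1, and 24.5% lay lower without overlap. Pln and Sln, the regulators phospholamban and sarcolipin, were each listed at 0 in all but 1 library, in which they were at 0.0703 and 1.69 FPKM.

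Whether the other members changed with the level of cyclin Y was tested with limma, over the 10188 genes that reached an FPKM of 1 in at least 2 libraries, after values had been floored to 1 and log2-transformed. Of the members, 6 passed this filter, and Dlk1 and Igf2 did not. Beside Nnat, the 5 tested members were Ndn, Peg3, Igf2r, Plagl1 and Snrpn. By limma, 0 of the 5 had an adjusted p under 0.05 in any of the 3 comparisons (CCNY-WT against EGFP, CCNY-shRNA against EGFP, CCNY-shRNA against CCNY-WT), and 0 had an unadjusted p under 0.05. Over all genes tested, the share past the adjusted threshold was 0.00982% in CCNY-WT, 0.746% in CCNY-shRNA (0.167% higher and 0.579% lower) and 0.216% between these conditions, and the share at an unadjusted p under 0.05 was 6.83%, 18.6% and 12.2%. At such shares few calls would be met among any 5 genes. By size alone, 0 of the 5 passed a log2 difference of 0.3 in CCNY-WT or of 0.33 in CCNY-shRNA, which 8.35% and 13.1% of all genes tested passed.

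Ndn, which is known to bind E2F factors and to be abundant in postmitotic neurons, was the steadiest member, with a ratio of 1.09 between its highest and lowest library. Its FPKM was 278 and 297 in the EGFP controls, 272 and 283 in those of CCNY-WT and 289.7 and 295 in those of CCNY-shRNA. The CCNY-WT libraries overlapped those of EGFP, and so did the CCNY-shRNA libraries. The log2 change was -0.05 in CCNY-WT (95% interval -0.18 to 0.08, limma adjusted p = 0.901) and 0.02 in CCNY-shRNA (-0.11 to 0.16, limma adjusted p = 0.877).

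Peg3, which acts in cell death and in maternal and feeding behaviour, was at 147 and 154 FPKM in the EGFP controls, 143 and 132 in those of CCNY-WT and 144 and 127 in those of CCNY-shRNA. The libraries of CCNY-WT and of CCNY-shRNA all lay below both EGFP libraries. Its log2 change was -0.13 in CCNY-WT (limma adjusted p = 0.785, standard error 0.0756) and -0.16 in CCNY-shRNA (95% interval -0.34 to 0.01, limma adjusted p = 0.306). The 2 conditions share the EGFP libraries, so these values are not independent of each other. Over all genes tested, 19.2% lay lower without overlap in CCNY-WT, as did 24.5% in CCNY-shRNA.

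Igf2r was at 26.4 and 26.3 FPKM in the EGFP controls, 23.7 and 23.5 in those of CCNY-WT and 26.8 and 24.1 in those of CCNY-shRNA. The 2 CCNY-WT libraries lay below the other 4, whereas the CCNY-shRNA libraries lay on both sides of EGFP. The log2 change in CCNY-WT was -0.16 (standard error 0.0799, 95% interval -0.34 to 0.03, limma adjusted p = 0.761), and in CCNY-shRNA it was -0.05 (limma adjusted p = 0.789). With Peg3, this made 2 of the 5 tested members lower without overlap in CCNY-WT and 1 of 5, Peg3, in CCNY-shRNA. Against each other, CCNY-shRNA lay above CCNY-WT without overlap for Ndn and Igf2r, as it did for 20.3% of all genes tested, with limma adjusted p-values of 0.671 and 0.646. In 0 of the 5 tested members did CCNY-WT and CCNY-shRNA lie on opposite sides of both EGFP libraries, against 3.31% of all genes tested.

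Plagl1, which is known to restrain cell growth and to regulate other imprinted genes, was at 9.67 and 8.15 FPKM in the EGFP controls, 8.89 and 7.45 in those of CCNY-WT and 9.76 and 7.68 in those of CCNY-shRNA. The first library of each condition was higher than the second, and all 3 conditions overlapped. Its log2 change was -0.13 in CCNY-WT (95% interval -0.52 to 0.27) and -0.04 in CCNY-shRNA (-0.43 to 0.36), with limma adjusted p-values of 0.916 and 0.939. The intervals were about 3 times as wide as those of Ndn.

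Snrpn was at 6.69 and 4.68 FPKM in the EGFP controls, 4.68 and 5.17 in those of CCNY-WT and 4.37 and 6.81 in those of CCNY-shRNA. The libraries of CCNY-shRNA differed by 0.64 on the log2 scale and enclosed the values of the other 4. The log2 change was -0.19 in CCNY-WT (95% interval -0.77 to 0.40, limma adjusted p = 0.916) and -0.04 in CCNY-shRNA (-0.62 to 0.54, limma adjusted p = 0.959). Snrpb, the ubiquitous paralog that encodes the SmB proteins, was between 8.22 and 14.6 times as abundant, at 55.0 to 71.2 FPKM. The coding sequences of the 2 paralogs are much alike, and how reads that match both were assigned is not given in the sources used here, so the level of Snrpn is uncertain.

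**Figure D3:**
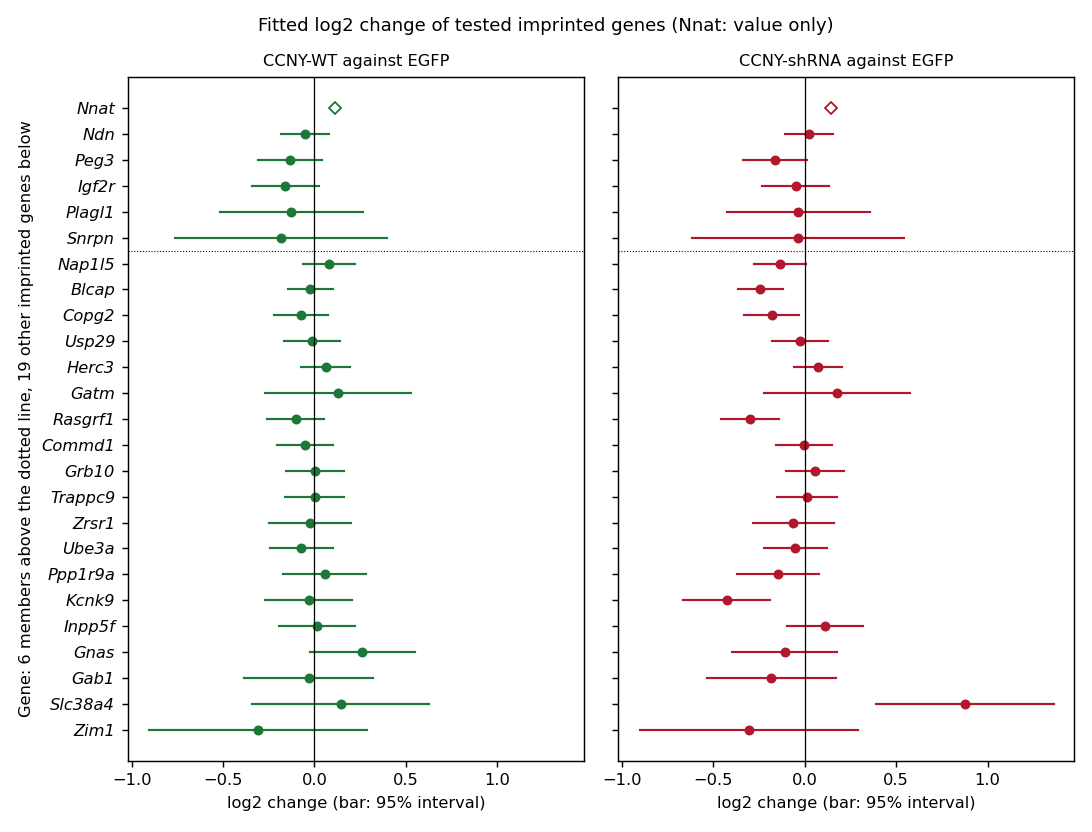
Fitted log2 change relative to EGFP in CCNY-WT (left) and CCNY-shRNA (right) for the 6 members that passed the filter, above the dotted line, and for 19 other imprinted genes below it, with points for the estimate and bars for the 95% interval of limma. Nnat (open diamond) is given as a value only. The bars of all 5 tested members cross 0 in both panels, while those of Blcap, Copg2, Rasgrf1, Kcnk9 and Slc38a4 lie clear of 0 in CCNY-shRNA.

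Igf2 and Dlk1 were close to the limit of detection. The FPKM of Igf2 was 0.302 and 0.138 in the EGFP controls, 0.0758 and 0.108 in those of CCNY-WT and 0.123 and 0.131 in those of CCNY-shRNA. Scaled by relative depth, these values stood in the ratio of whole numbers, of which the smallest were 6 and 3 fragments in the EGFP controls, 2 and 2 in those of CCNY-WT and 2 and 3 in those of CCNY-shRNA, 18 in all. For Dlk1, at 0.423 and 0.129 FPKM in the EGFP controls, 0.320 and 0.151 in those of CCNY-WT and 0.345 and 0.489 in those of CCNY-shRNA, the smallest numbers were 3 and 1, 3 and 1, and 2 and 4, or 14 in all. True numbers could be multiples of these. If the smallest numbers are the true ones, each gene rested on a handful of fragments per library, and differences between conditions were not detectable at this depth. Both genes were thus detected in trace amounts in every library, in contrast to Igf2r, which was between 87.4 and 312 times as abundant as Igf2.

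The proteins that work with the scarce IGF2 were better represented. Of 16 genes fixed for IGF signalling, 15 had a row and 11 could be tested. Igfbp2, a binding protein secreted by neural cells, had a mean of 62.1 FPKM, followed by M6pr, the smaller mannose 6-phosphate receptor, with 59.3, Igfbp4 with 37.2 and Igfbp5 with 29.6. M6pr was between 2.09 and 2.67 times as abundant as Igf2r in each library. The receptors Insr and Igf1r had means of 10.6 and 4.28 FPKM, and the ligand Igf1 had 11.9.

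Igfbp4, which binds IGFs and mostly holds back their action, was the only gene of the list past the threshold. In CCNY-shRNA against EGFP, 1 of the 11 was called (0.746% of all genes tested) and 3, all lower, had an unadjusted p under 0.05 (18.6%). In CCNY-WT against EGFP, limma called 0 of the 11 (0.00982%), and 1, higher, had an unadjusted p under 0.05 (6.83%). In CCNY-shRNA against CCNY-WT, limma called 0 (0.216%), and 4, all lower, had an unadjusted p under 0.05 (12.2%). The FPKM of Igfbp4 was 38.8 and 46.4 in the EGFP controls, 41.6 and 39.6 in those of CCNY-WT and 28.4 and 28.6 in those of CCNY-shRNA, with the CCNY-shRNA libraries below the other 4. The log2 change in CCNY-shRNA was -0.58 (standard error 0.0906, 95% interval -0.79 to -0.37, limma adjusted p = 0.0439). The call was lost when any 1 library was left out, with changes from -0.71 to -0.45 and limma adjusted p-values from 0.104 to 0.3297. Igfbp5 had a log2 change of -0.34 (limma adjusted p = 0.0990) and Irs2, an adaptor of the insulin and IGF1 receptors, of -0.27 (limma adjusted p = 0.121), both without overlap with EGFP. Over the 11 genes, 4 lay above 0 and 7 below in CCNY-shRNA, with a median of -0.03 against 0 over all genes tested. In CCNY-shRNA against CCNY-WT, 9 of the 11 lay below 0, with a median of -0.23 against 0.00 over all genes tested. Without overlap between CCNY-shRNA and EGFP, 23.9% of all genes tested lay higher in CCNY-shRNA and 24.5% lower. Of the 12 neuron markers, 2 lay higher and 6 lower in this way, and of the 7 astrocyte markers 0 lay higher and 2 lower. Gad2, an enzyme of inhibitory neurons, was the only marker of these lists past the threshold in CCNY-shRNA, at 129.5 and 129.0 FPKM against 170.4 and 173 in EGFP, whereas Gad1, which marks the same neurons, was at 183 and 187 against 189 and 188. The part of these markers in the change of Igfbp4 was not tested.

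Dlk1 is related to the ligands of Notch receptors. Of 13 genes fixed for Notch signalling, 12 had a row and 9 could be tested, and by limma 0 passed the adjusted threshold or had an unadjusted p under 0.05 in any of the 3 comparisons. Over all genes tested these shares were 0.00982% and 6.83% with CCNY-WT, 0.746% and 18.6% with CCNY-shRNA, and 0.216% and 12.2% for CCNY-shRNA against CCNY-WT. The highest means were those of Dlk2, the non-imprinted homolog of Dlk1, with 20.3 FPKM, Hey1 with 11.9, Hes1 with 4.42 and Notch3 with 3.06. Dlk2 was at 17.5 and 21.1 FPKM in the EGFP controls, 18.9 and 24.0 in those of CCNY-WT and 22.1 and 17.9 in those of CCNY-shRNA, so all 3 conditions overlapped. The 9 genes had a median log2 change of 0.08 with CCNY-WT and of -0.06 with CCNY-shRNA, against 0.00 and 0 over all genes tested. In CCNY-shRNA against CCNY-WT, 9 of the 9 lay below 0, with a median of -0.16 against 0.00 over all genes tested. Only 3 of the 9 were lower without overlap. Notch1, Jag1 and Hes5 fell under the floor of 1 in at least 1 CCNY-shRNA library, so the floor entered their changes. The share of all genes tested that lay below 0 was not counted, and a joint change of the list was not tested.

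The wider set of imprinted genes was examined with a list of 45 further genes imprinted in the mouse, of which 33 had a row. Together with the 8 members, this made 41 genes, of which 5 had a mean FPKM of 100 or more (Nnat, Ndn, Nap1l5, Peg3 and Blcap), 14 lay between 10 and 100, 6 between 1 and 10, and 16 under 1. The share at 100 or more was 12.2%, against 6.62% of all genes, and the share under 1 was 39.0%, against 41.3%. Nnat, whose abundance led to the choice of the group, is counted in the 12.2%, so that share is a description only. Nap1l5, a nucleosome assembly protein of neurons, had a mean of 143 FPKM, Copg2, a coat protein of Golgi vesicles, of 48.1, Usp29, a deubiquitinase, of 48.0 and Herc3, a ubiquitin ligase, of 47.6.

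Levels differed between neighbours within an imprinted domain. In the Peg3 domain, Usp29 was at 45.3 to 49.8 FPKM and Zim1, a zinc finger gene known to be expressed from the maternal copy, at 0.832 to 1.54, while Peg3 was between 2.77 and 3.22 times as abundant as Usp29. In the domain of Ndn and Snrpn, Ube3a, the ubiquitin ligase of Angelman syndrome, was at 22.9 to 24.7 FPKM and Peg12 under 0.2. Slc22a2 and Slc22a3, neighbours of Igf2r, lay under 1 in every library, and Slc22a2 was listed at 0 throughout. Dio3, which shares a domain with Dlk1, was likewise listed at 0 throughout.

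The domain of Igf2 was hardly expressed. Of 8 genes there (Igf2, H19, Ins2, Ascl2, Kcnq1, Phlda2, Slc22a18 and Cdkn1c), 7 never reached an FPKM of 1, and the sum over the 8 was between 1.03 and 2.99 in a library. The remaining gene, Ins2, was at 2.01 FPKM in CCNY-WT replicate 1 and listed at 0 in every other library. H19, the non-coding RNA that shares enhancers with Igf2, was listed at 0 in 3 of the 6 libraries and reached 0.215 at most. Cdkn1c, an inhibitor of cyclin-dependent kinases, was the highest of the domain in 4 of the 6 libraries, at 0.414 and 0.262 FPKM in the EGFP controls, 0.635 and 0.554 in those of CCNY-WT and 0.831 and 0.955 in those of CCNY-shRNA. All CCNY-WT and CCNY-shRNA libraries lay above both EGFP libraries, but the gene was under the floor and was not tested. Over all genes tested, 20.3% lay higher without overlap in CCNY-WT and 23.9% in CCNY-shRNA, and the 2 conditions share the EGFP libraries. Cdkn1c was picked out after its values had been seen. Meg3 and Magel2, the partners of Dlk1 and Ndn, were not analysed here.

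Of the 33 further imprinted genes, 19 could be tested with limma, and 0 passed the adjusted threshold in CCNY-WT, in CCNY-shRNA or between these conditions. In CCNY-WT 0 had an unadjusted p under 0.05. In CCNY-shRNA 5 did, 1 higher and 4 lower, against a background of 18.6% of all genes tested, and 4 of them (Blcap, Rasgrf1, Kcnk9 and Slc38a4) had an adjusted p under 0.1, against 3.88%. The median log2 change of the 19 genes was -0.01 in CCNY-WT and -0.06 in CCNY-shRNA, against 0.00 and 0 over all genes tested. Without overlap with EGFP, 4 of the 19 lay higher and 9 lower in CCNY-shRNA, against 23.9% and 24.5% of all genes tested. In CCNY-WT 3 lay higher and 4 lower, against 20.3% and 19.2%.

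Of the 4 genes nearest the threshold, Blcap has been described with Nnat, and the other 3 were picked out after their values had been seen. Rasgrf1, a Ras exchange factor of neurons expressed from the paternal copy, was at 42.1 and 45.7 FPKM in the EGFP controls, 41.3 and 40.3 in those of CCNY-WT and 34.9 and 36.4 in those of CCNY-shRNA (a log2 change of -0.30, limma adjusted p = 0.0855). Kcnk9, the potassium channel TASK3, was at 26.1 and 24.2 FPKM in the EGFP controls, 25.2 and 24.1 in those of CCNY-WT and 20.5 and 17.1 in those of CCNY-shRNA (-0.43, limma adjusted p = 0.0952). Slc38a4, an amino acid transporter, was at 1.45 and 1.95 FPKM in the EGFP controls, 1.76 and 1.97 in those of CCNY-WT and 3.08 and 3.11 in those of CCNY-shRNA (0.88, limma adjusted p = 0.0936). In all 3 genes the CCNY-shRNA libraries stood apart from the other 4. None of them passed the threshold under any of the 16 alternatives tried.

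**Figure D4:**
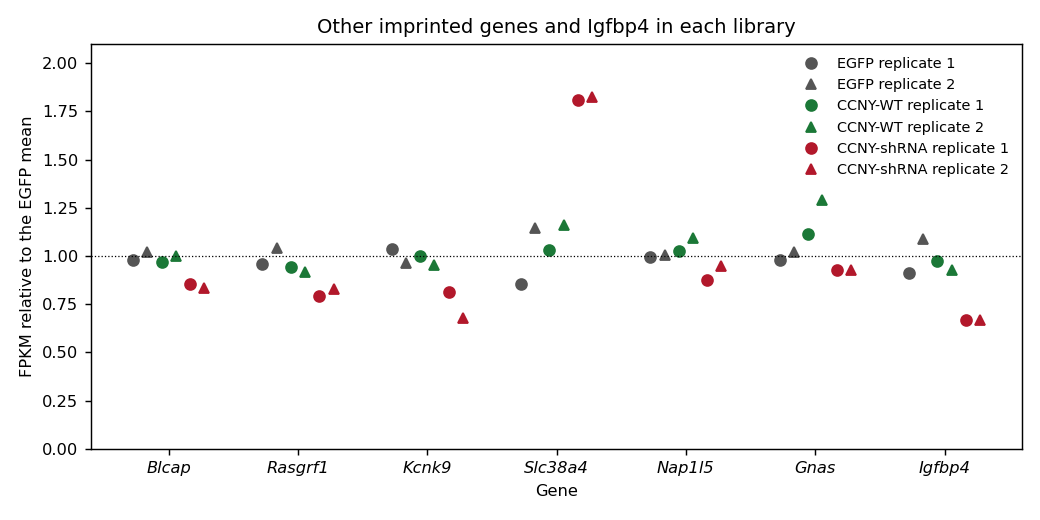
FPKM relative to the EGFP mean of each gene for Blcap, Rasgrf1, Kcnk9, Slc38a4, Nap1l5, Gnas and Igfbp4, with 1 point per library (circles for replicate 1, triangles for replicate 2) and 1 colour per condition. The CCNY-shRNA points lie below all others for Blcap, Rasgrf1, Kcnk9, Nap1l5, Gnas and Igfbp4, and above all others for Slc38a4.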

How the data were processed

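The authors prepared TruSeq mRNA libraries (a stranded kit per the labels, while the methods of the study name the TruSeq RNA kit without a word on strand), aligned 150-bp paired-end reads to rn4 with TopHat2 (2.0) and Bowtie2 (2.1.0), and deposited 1 FPKM value per gene and library from Cufflinks (2.2.1), tool versions being those of the submitters' processing notes. Neither the annotation nor a scaling across libraries is given in the sources used here. FPKM values were floored to 1, log2-transformed and fitted with limma 3.58.1 (R 4.3.3; lmFit, contrasts.fit, eBayes with its trend option). All 6 libraries entered the fit, which covered the 10188 genes reaching an FPKM of 1 in at least 2 of them, and the Benjamini-Hochberg adjustment was made over these genes, with calls at an adjusted p under 0.05. The fit was tested on simulated data with normal noise whose spread followed the mean level alone. Such noise favours the trend option, and the simulation could not show whether the real data behave alike. With 2 libraries against 2, an exact permutation test of a single gene cannot go below p = 0.333. Fold changes are on the scale of floored values and understate those of genes near an FPKM of 1.

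Relative depth was read from 1113 genes with a highest FPKM under 0.3, of which 97.5% fitted whole fragments within 0.02. Python 3.11.15 with pandas 2.3.3, numpy 2.4.6 and matplotlib 3.10.9 was used for tables and plots.

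The members, the lists (further imprinted genes, IGF, Notch and SERCA genes, cell type markers, written from general knowledge) and the tests were chosen with earlier results of these data known. Named were all members, the 5 most abundant further imprinted genes, cluster partners of the members, the 4 most abundant genes of each other list, genes past the threshold, Snrpb, Ccny, the 5 genes most like Nnat, and the most abundant genes of the libraries. Others were named after their values had been seen. Alternatives covered the offset, the filter, scaling, the estimate of the spread, the libraries fitted, a replicate block and leaving out each library.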

Additional observations from a re-analysis of the deposited data

Results flagged for a closer look

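In 2 of the 19 further imprinted genes tested, Gnas and Nap1l5, both CCNY-WT libraries lay on one side of both EGFP libraries and both CCNY-shRNA libraries on the other, against 3.31% of all genes tested. Gnas, which encodes the stimulatory G protein alpha subunit and several other imprinted transcripts, was at 8.46 and 8.80 FPKM in the EGFP controls, 9.61 and 11.1 in those of CCNY-WT and 7.995 and 7.995 in those of CCNY-shRNA. The log2 change between CCNY-shRNA and CCNY-WT was -0.37 (limma adjusted p = 0.317). Nap1l5 was at 144 and 145 FPKM in the EGFP controls, 148 and 158 in those of CCNY-WT and 126 and 137 in those of CCNY-shRNA, with a log2 change between CCNY-shRNA and CCNY-WT of -0.22 (limma adjusted p = 0.259). Neither difference passed the threshold, and the opposite directions relative to the shared EGFP libraries were not tested. No member showed this pattern.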

How the results depend on the processing

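Under 16 alternatives, 0 of the 5 tested members and 0 of the 19 further imprinted genes passed the limma threshold in any comparison, and the smallest adjusted p of a member was 0.150. Changes of direction arose only when 1 library was left out. The log2 changes then ranged, in CCNY-WT against EGFP, from -0.44 to 0.073 for Snrpn and from -0.25 to 0.0013 for Plagl1. In CCNY-shRNA against EGFP they ranged from -0.025 to 0.071 for Ndn, from -0.36 to 0.28 for Snrpn, from -0.13 to 0.028 for Igf2r and from -0.21 to 0.14 for Plagl1. In CCNY-shRNA against CCNY-WT they ranged from -0.12 to 0.063 for Peg3, from -0.17 to 0.47 for Snrpn and from -0.083 to 0.26 for Plagl1. Over all genes tested, the calls in CCNY-shRNA against EGFP numbered 76 (17 higher and 59 lower, or 21 and 42 with upper quartile scaling), between 63 and 108 under other offsets, scalings, robust eBayes and a filter on mean FPKM, but 2 with no filter on low values, 1 with eBayes without a trend or with the EGFP and CCNY-shRNA libraries alone, and from 1 to 7 with 1 library left out. A lone library was then assumed to vary like the other groups. Igfbp4 kept its call in 5 of the 16 alternatives. It lost it with quantile normalization (adjusted p = 0.0508), with no filter (0.176), without a trend (0.169), with the 4 libraries of both conditions alone (0.187) and with a replicate block (0.0618), and the cause was not tested. The deviations of same-numbered libraries correlated at 0.0849, -0.0197 and 0.0809 over 8060 genes, so no strong effect shared by replicate number was seen. Whether same-numbered libraries came from 1 culture or preparation cannot be told from these values. With the replicate block, 39 genes were called in CCNY-shRNA, and the log2 changes of the members were as before, for example -0.16 for Peg3 in CCNY-shRNA and -0.05 for Ndn in CCNY-WT. Another scaling moved the median log2 change of all genes by at most 0.02.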
